A study of Rattus norvegicus with 16 samples.

Results

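The genes described are 8 secreted-protein genes of the rat colon, 6 alpha-defensins (Defa6, Defa8, Defa9, Defa24, Defal1 and RatNP-3b) together with Mmp7 and Pla2g2a, out of 15159 named genes on the array. The alpha-defensins were chosen by values measured on these same arrays, namely the difference between Pirc and wildtype rats after DSS and the difference between the DSS effects of the genotypes. Mmp7 and Pla2g2a were chosen by the difference between Pirc and wildtype rats over both treatments. Those contrasts are therefore given as a description without a test. All 8 genes matched probes by RefSeq transcript, with exactly 1 probe each, spotted once for Defa9 and RatNP-3b and in duplicate for the others.

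RNA came from the normal distal colon of 16 male (ACIxF344)F1 rats, all 97 days old, with 4 rats in each of 4 groups. The wildtype (WT) groups had a wildtype Apc genotype, and the Pirc groups were Pirc/+, that is heterozygous for a germline mutant allele of Apc, a negative regulator of Wnt signalling. Every cell of a Pirc rat thus carries the mutant allele, and the samples were taken as normal tissue, not tumor. Rats of 1 group per genotype drank 4% dextran sodium sulfate (DSS), which injures the colonic lining and inflames it, between days 40 and 47 and again between days 54 and 61. Sampling came 36 days after the last DSS, and the other group of each genotype was untreated. The comparisons asked how DSS and the Pirc allele, alone and together, changed transcript levels in normal colon.

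Alpha-defensins are small antimicrobial peptides kept in granules of Paneth cells, at the base of small intestinal crypts, and of neutrophils. The colon normally holds few Paneth cells. In mice, matrilysin (the product of Mmp7) cleaves Paneth cell pro-defensins into their active form, and the secreted phospholipase A2 encoded by Pla2g2a is another Paneth cell granule protein that attacks bacterial membranes. The RatNP and Np names stand for peptides first described from rat neutrophils. In the RefSeq gene table (GRCr8) the 6 alpha-defensin genes lie in 1 uninterrupted run of alpha-defensin genes and pseudogenes on chromosome 16.

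Promoters were read from RefSeq tables for the 4 of the 8 genes that had an entry, and the 250 bases before each start site are shown, 5′ to 3′ on the gene's strand, because Wnt signalling acts through TCF/LEF factors and AP-1 is a factor of inflamed tissue. Capitals mark ATCAAAG, a TCF/LEF motif, and TGAGTCA, an AP-1 motif. Both strands were searched, and the motifs did not overlap. The windows (GRCr8) are chr16:77184018-77184267 on the plus strand for Defa9, chr8:13132793-13133042 on the plus strand for Mmp7, chr16:77248978-77249227 on the minus strand for RatNP-3b and chr5:156359475-156359724 on the plus strand for Pla2g2a.
Defa9: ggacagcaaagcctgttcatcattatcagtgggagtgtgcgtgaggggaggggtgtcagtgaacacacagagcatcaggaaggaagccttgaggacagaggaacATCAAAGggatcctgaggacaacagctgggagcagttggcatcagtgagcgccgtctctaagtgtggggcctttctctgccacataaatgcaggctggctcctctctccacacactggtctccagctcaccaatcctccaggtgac
Mmp7: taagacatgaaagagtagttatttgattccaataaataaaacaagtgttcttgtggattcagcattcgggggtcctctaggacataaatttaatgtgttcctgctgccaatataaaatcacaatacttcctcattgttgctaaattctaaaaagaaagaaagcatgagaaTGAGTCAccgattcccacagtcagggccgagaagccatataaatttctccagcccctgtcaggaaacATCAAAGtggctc
RatNP-3b: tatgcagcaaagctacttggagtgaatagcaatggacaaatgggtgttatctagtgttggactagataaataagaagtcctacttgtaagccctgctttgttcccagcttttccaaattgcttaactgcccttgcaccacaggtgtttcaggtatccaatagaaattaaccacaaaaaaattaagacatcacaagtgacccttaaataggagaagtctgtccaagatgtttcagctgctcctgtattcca
Pla2g2a: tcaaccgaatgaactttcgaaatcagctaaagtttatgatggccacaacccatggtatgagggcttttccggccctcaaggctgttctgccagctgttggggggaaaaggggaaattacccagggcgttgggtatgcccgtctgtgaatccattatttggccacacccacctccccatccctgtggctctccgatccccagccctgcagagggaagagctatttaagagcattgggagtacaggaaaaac

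The Defa9 window held ATCAAAG beginning 146 bases before the start. The Mmp7 window held ATCAAAG at 13 bases and TGAGTCA at 80 bases before the start. Neither motif was found in the windows of RatNP-3b and Pla2g2a. Of 33469 rat promoter windows of the same length, 3.15% held the TCF/LEF motif and 4.05% the AP-1 motif on either strand. A match of letters is a description of the window and not evidence of binding.

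Levels are given as the log2 of a probe's signal over the 75th percentile of its array, so that 0 is the level of that percentile and each unit is a factor of 2. They compare rats for the same gene and, apart from sums over a list and some signals before scaling, are not compared between genes. No spot was saturated, and the scanner software flagged 71.11 to 80.32% of spots as well above background, depending on the array. The 75th percentile of the signal ranged from 875.4 in rat 16 to 2194 in rat 19, both Pirc rats. No pair of arrays was identical (0 pairs), and precision is limited by how many arrays there are. Each slide gave every group an array column of its own, and effects of column and of group cannot be told apart. Markers of colon epithelium were detected, with 13 of 13 measured genes of that list (1 of 14, Muc2, was not matched) above background on every array, among them the defining genes Car1, Slc26a3, Krt20 and Epcam. Detection was not particular to that list. On every array 9 of 13 measured small intestine genes, among them Lct, Apoa4 and Fabp6, and 12 of 18 measured Paneth cell genes were also well above background. In bulk tissue, fewer cells of a type and less RNA per cell cannot be told apart.

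**Figure D1:**
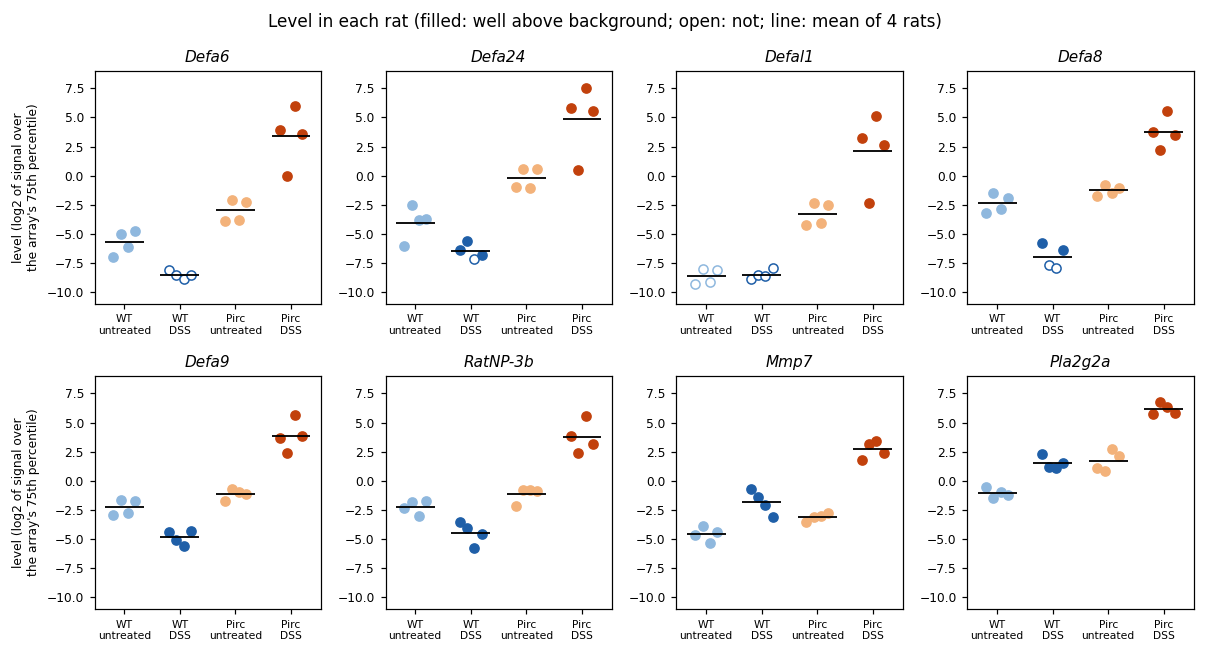
Level (log2 of signal over the 75th percentile of the array) of each of the 8 genes in each of 16 rats, grouped as wildtype (WT) or Pirc, untreated or DSS. Filled points were well above background, open points were not, and lines are means of 4 rats; the 4 DSS-treated Pirc rats lie above every DSS-treated wildtype rat for all 8 genes.

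All 8 genes had their highest mean in DSS-treated Pirc rats, but DSS went with opposite shifts of 5 of the 6 alpha-defensins in the 2 genotypes. In wildtype rats 5 of the 6 alpha-defensins had lower means after DSS, whereas in Pirc rats all 6 had higher means. These counts give the direction of means and are not calls. As calls, limma gave 0.899% of all probes lower after DSS in wildtype rats and 8.14% higher in Pirc rats. Without overlap of treated and untreated rats, 4.44% of all probes were lower in wildtype and 8.88% higher in Pirc rats. The lower wildtype means were not all clear, since the Defa24 groups overlapped and Defa6 differed by only -0.39 with another background correction (normexp). Mmp7 and Pla2g2a were higher after DSS in both genotypes. Among all 30367 probes, 9.47% were called higher and 8.76% lower in Pirc than in wildtype rats after DSS at an adjusted p of 0.05 or less (limma), and 9.62% were higher in all 4 Pirc rats than in every wildtype rat. Because this contrast and the difference between DSS effects chose the alpha-defensins, nothing is read from their count of 6 of 6 without overlap or from their counts of direction with DSS.

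Defa6, Defa24 and Defal1, alpha-defensins of the kind made by Paneth cells, shared a pattern in which all untreated Pirc rats lay above all untreated wildtype rats. The size of that difference depended on the background correction: with normexp, an alternative estimate of the background of a spot, it was 1.25 for Defa6, 2.95 for Defa24 and 1.60 for Defal1, against 0.91 to 0.97 for Defa8, Defa9 and RatNP-3b. In the untreated comparison limma called 0 of all 30367 probes, these 6 included. Of all probes, 4.69% were likewise higher in every untreated Pirc rat than in every untreated wildtype rat. Levels below are in order of rat number, which is 13, 17, 21 and 25 for untreated and 14, 18, 22 and 26 for DSS-treated wildtype rats, and 11, 15, 19 and 23 for untreated and 12, 16, 20 and 24 for DSS-treated Pirc rats. The order of rats carries no meaning within a group beyond this naming.

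Defa6 read -6.95, -4.98, -6.14 and -4.77 in untreated wildtype rats and -8.10, -8.57, -8.84 and -8.49 after DSS, where 0 of 4 arrays were well above background. In Pirc rats it read -3.87, -2.05, -3.78 and -2.23 untreated and 3.92, -0.02, 5.99 and 3.56 after DSS. The 4 groups did not overlap at all, in the order DSS wildtype, untreated wildtype, untreated Pirc and DSS Pirc. The Pirc mean exceeded the wildtype mean by 2.73 (SE 0.93, log2, n = 4 per group) untreated and by 11.86 after DSS. DSS-treated wildtype rats were at background, and against the lowest signal well above background on each array Pirc rats were at least 2200-fold higher and the fall with DSS in wildtype rats was at least 4.09-fold. These bounds depend on the floor: with the highest such floor used for all arrays the log2 differences were 10.67 and -1.60, and with normexp 7.57 and -0.39.

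Defa24 read -6.04, -2.54, -3.77 and -3.75 in untreated and -6.37, -5.64, -7.12 and -6.83 in DSS-treated wildtype rats, with 3 of 4 of the latter well above background. In Pirc rats it read -1.0, 0.61, -1.02 and 0.61 untreated and 5.78, 0.52, 7.48 and 5.53 after DSS. Untreated Pirc rats were all above untreated wildtype rats, but treated and untreated rats overlapped within each genotype, in Pirc because rat 16 lay between its untreated counterparts. The Pirc minus wildtype difference was 3.83 (SE 1.14) untreated and 11.32 after DSS.

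Defal1, a gene named as alpha-defensin-like, was the member most nearly restricted to Pirc tissue by its detection. It read -9.29, -8.05, -9.15 and -8.08 in untreated and -8.88, -8.54, -8.58 and -7.95 in DSS-treated wildtype rats, all 8 not well above background. It read -4.20, -2.34, -4.05 and -2.52 in untreated and 3.19, -2.35, 5.08 and 2.66 in DSS-treated Pirc rats, all 8 well above background. Pirc rats were at least 25.1-fold higher than wildtype rats untreated and at least 948-fold higher after DSS against the floor of each array. With 1 floor for all arrays the log2 differences were 4.03 and 9.45, and with normexp 1.60 and 6.47. Rat 16, at -2.35, sat level with the highest untreated Pirc rat, and the other DSS-treated Pirc rats were far above it.

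Defa8, Defa9 and RatNP-3b formed a second pattern, with a small difference between the genotypes before DSS and a clear separation of all DSS groups. Defa8 read -3.19, -1.52, -2.84 and -1.89 in untreated and -5.80, -7.63, -7.97 and -6.38 in DSS-treated wildtype rats, with 2 of 4 of the latter well above background. The Pirc rats read -1.76, -0.78, -1.48 and -1.04 untreated and 3.75, 2.21, 5.58 and 3.53 after DSS. Untreated rats of the genotypes overlapped (difference 1.10, SE 0.63), and each DSS group stood apart on its own side, lower in wildtype (-4.58, and -2.02 with normexp) and higher in Pirc (5.04).

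Defa9 read -2.94, -1.66, -2.73 and -1.72 in untreated and -4.41, -5.05, -5.60 and -4.26 in DSS-treated wildtype rats. In Pirc rats it read -1.72, -0.73, -0.95 and -1.10 untreated and 3.65, 2.40, 5.65 and 3.84 after DSS. All 16 arrays were well above background. The DSS mean was 5.92-fold below the untreated mean in wildtype rats (log2 difference -2.57, SE 0.54) and 32.2-fold above it in Pirc rats (5.01, SE 0.54). With normexp the wildtype difference was smaller, at -1.49, and the Pirc difference was 4.85. After DSS the Pirc mean was 421-fold above the wildtype mean.

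RatNP-3b read -2.31, -1.83, -3.01 and -1.75 in untreated and -3.50, -4.03, -5.75 and -4.53 in DSS-treated wildtype rats. Levels in Pirc rats were -2.15, -0.74, -0.79 and -0.87 untreated and 3.82, 2.35, 5.54 and 3.20 after DSS. All 16 arrays were again well above background, and only the untreated groups overlapped. The DSS mean was 4.68-fold below the untreated mean in wildtype rats and 29.1-fold above it in Pirc rats, and the genotypes differed 290-fold after DSS. With normexp the log2 difference in wildtype rats was -1.38 in place of -2.23.

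**Figure D2:**
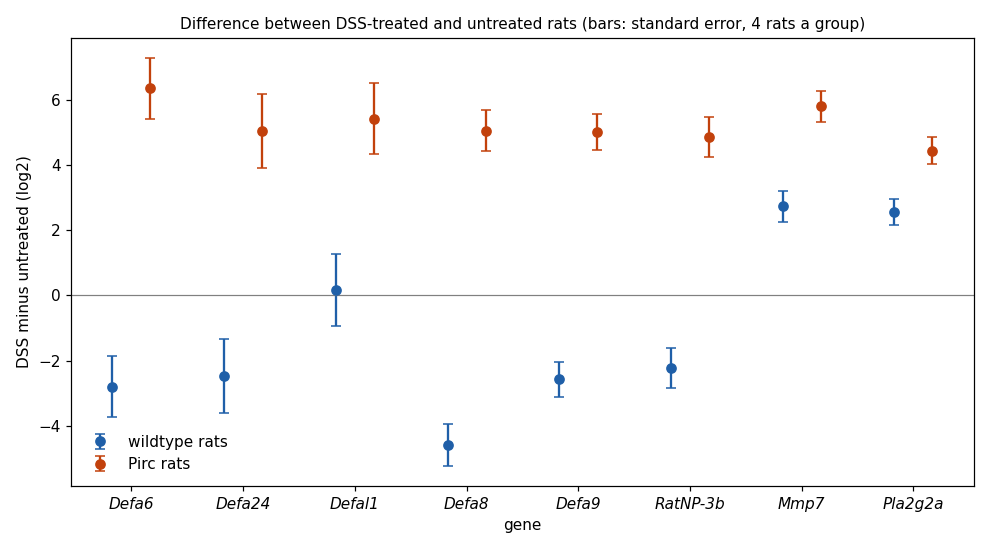
Mean of 4 DSS-treated rats minus mean of 4 untreated rats (log2) for each of the 8 genes, in wildtype rats (blue) and Pirc rats (orange), with the standard error from the fit over all probes. In Pirc rats all 8 differences lie between 4.44 and 6.34, while in wildtype rats the alpha-defensins lie between -4.58 and 0.16 and Mmp7 and Pla2g2a at 2.73 and 2.57; the Defal1 value in wildtype rats rests on arrays at background.

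Among DSS-treated Pirc rats, rat 20 was highest and rat 16 lowest for all 6 alpha-defensins. The spread in that group had an SD of 2.50 for Defa6, 3.0 for Defa24 and 3.17 for Defal1, against 1.39 for Defa8, 1.34 for Defa9 and 1.35 for RatNP-3b. The array of rat 16 also had the lowest 75th percentile of signal of all 16. The part of array brightness in this order was not tested, and rat 16 was the highest of its group for Pla2g2a. Without rat 16 the difference between Pirc and wildtype rats after DSS ran from 8.64 for RatNP-3b to 12.99 for Defa6 over the 6 genes, and without rat 20 from 7.58 to 10.99. With normexp the differences of the 6 genes were smaller, from 6.47 for Defal1 to 8.83 for Defa24.

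The Pirc minus wildtype difference after DSS was present on both slides, each of which carried 2 rats of every group. For Defa9 it was 7.75 on slide 1 and 9.68 on slide 2, for RatNP-3b 6.85 and 9.51, and for Defa6 10.29 and 13.44. The row of the array on the slide also went with alpha-defensin levels within groups. Among untreated rats, the 2 rats in row 2 were above the 2 in row 1 without overlap for Defa6, Defa8, Defa24 and Defal1 in each genotype, by 0.71 to 1.76 (Defal1 was at background in wildtype rats). Among DSS-treated Pirc rats the direction was opposite, and row 2 lay below row 1 by 1.53 for Defa9 to 3.98 for Defal1. Within row 1 the Pirc minus wildtype difference after DSS was 9.66 for Defa9 and within row 2 it was 7.77, and the part of array row in the spread was not tested.

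Mmp7, which encodes matrilysin, rose after DSS in both genotypes. It read -4.61, -3.87, -5.34 and -4.36 in untreated and -0.67, -1.41, -2.11 and -3.06 in DSS-treated wildtype rats. Pirc rats read -3.50, -3.10, -3.0 and -2.74 untreated and 1.78, 3.17, 3.43 and 2.43 after DSS. DSS-treated wildtype rats and untreated Pirc rats overlapped, while untreated wildtype rats lay below and DSS-treated Pirc rats above all others. The rise with DSS was 6.63-fold in wildtype rats (log2 2.73, SE 0.47, limma adjusted p = 0.0062) and 55.2-fold in Pirc rats (5.79, SE 0.47, limma adjusted p = 3.32e-05). In the same tests 2.94% of all probes were called higher and 0.899% lower after DSS in wildtype rats, and 8.14% higher and 6.51% lower in Pirc rats. The share of higher calls among all calls depended on the scaling, being 76.6% in wildtype and 55.6% in Pirc rats here and 53.3% and 37.3% with quantile normalization, while both genes rose under either.

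Pla2g2a, which encodes the group IIA secretory phospholipase A2, rose in the same way. It read -0.54, -1.44, -0.98 and -1.19 in untreated and 2.28, 1.19, 1.08 and 1.56 in DSS-treated wildtype rats. Pirc rats read 1.13, 0.88, 2.77 and 2.10 untreated and 5.70, 6.77, 6.38 and 5.80 after DSS. DSS-treated wildtype and untreated Pirc rats overlapped here too, and the remaining groups were separate. The rise with DSS was 5.92-fold in wildtype rats (2.57, SE 0.40, limma adjusted p = 0.00402) and 21.8-fold in Pirc rats (4.44, SE 0.40, limma adjusted p = 4.7e-05).

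The rise with DSS was larger in Pirc than in wildtype rats by 3.06 (SE 0.66) for Mmp7 and 1.88 (SE 0.56) for Pla2g2a on the log2 scale. Neither difference between DSS effects passed the threshold over all probes, with limma adjusted p = 0.119 for Mmp7 and 0.273 for Pla2g2a, where 0.0428% of probes (13 of 30367) were called. The Mmp7 difference passed with background correction by normexp (3.47, limma adjusted p = 0.0102). Averaged over treatments, Pirc rats were above wildtype rats by 2.99 (SE 0.33) for Mmp7 and 3.69 (SE 0.28) for Pla2g2a, the contrast that chose both genes. Untreated, the Pirc minus wildtype difference was 1.46 for Mmp7 and 2.76 for Pla2g2a, with no overlap for either gene. In that untreated comparison limma called 0% of all probes (0 of 30367, with 3103 at an unadjusted p under 0.05, and 0 with quantile normalization and 1 with normexp), and 4.69% of probes were higher in all 4 Pirc rats than in every wildtype rat.

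Within slides, the Mmp7 rise with DSS was 3.20 and 2.26 in wildtype rats and 5.77 and 5.80 in Pirc rats. The Pla2g2a rise was 2.72 and 2.41 in wildtype rats and 5.23 and 3.66 in Pirc rats. Both genes therefore rose with DSS on each slide in each genotype.

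Group differences chose the 8 genes, but the spread of rats around their group means did not, and it was used to ask whether the genes varied together. Deviations from the group mean were correlated over the 16 rats for the 6 pairs among Defa9, RatNP-3b, Mmp7 and Pla2g2a, the genes well above background on every array, with an exact permutation of rats within groups (two-sided, adjusted over the 6 pairs). The probes of Defa9 and RatNP-3b varied together (Pearson r = 0.87, Spearman rho = 0.80, exact permutation p = 0.000868 and 0.00403, adjusted 0.00521 and 0.0242). Whether these probes read separate transcripts was not tested. The Spearman call did not hold with quantile normalization (adjusted p = 0.0696 by exact permutation) or without rat 20 (0.259), rat 11 (0.125), rat 21 (0.122) or rat 13 (0.0554), while the Pearson call held in each. Without rats 20 and 16, the farthest from the median, r was 0.73 (exact permutation p = 0.0127). With deviations taken within group and slide, r was 0.95 (exact permutation, adjusted p = 0.0469). With deviations taken within group and array row, a setting added after seeing the data, r was 0.78 and rho 0.74, with adjusted p of 0.218 and 0.312 by exact permutation.

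With all 16 rats no other pair passed the threshold. RatNP-3b and Mmp7 gave r = 0.49 and rho = 0.59 (exact permutation p = 0.125 and 0.0489, adjusted 0.328 and 0.147). Without rat 16 this pair gave 0.70 and 0.80 (exact permutation, adjusted p = 0.0741 and 0.0224), so that the rank correlation then passed. Mmp7 and Pla2g2a gave 0.36 and 0.44 (exact permutation p = 0.164 and 0.0972, adjusted 0.328 and 0.194). Defa9 and Mmp7 gave 0.27 and 0.37 (exact permutation p = 0.418 and 0.235, adjusted 0.62 and 0.352). RatNP-3b and Pla2g2a gave 0.18 and 0.14 (exact permutation p = 0.517 and 0.645, adjusted 0.62 and 0.774). Defa9 and Pla2g2a gave -0.02 and 0.05 (exact permutation p = 0.94 and 0.854, adjusted 0.94 and 0.854). Without the 2 rats farthest from the median of the first gene, r was 0.61, 0.32, 0.30, 0.34 and 0.08 for these pairs in the same order.

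**Figure D3:**
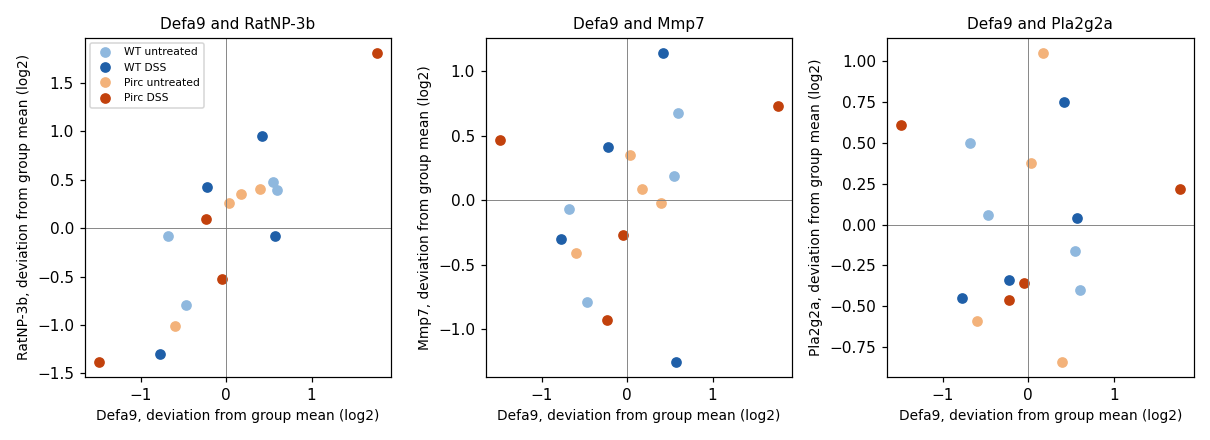
Deviation of each of 16 rats from its group mean (log2) for Defa9 on the horizontal axis against RatNP-3b, Mmp7 and Pla2g2a on the vertical axes, coloured by group. The points of RatNP-3b follow Defa9 (r = 0.87), with a DSS-treated Pirc rat at each end, and those of Mmp7 (0.27) and Pla2g2a (-0.02) do not line up with it.

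As a description over all 6 alpha-defensins, within-group r was 0.92 to 0.96 among Defa6, Defa24 and Defal1, 0.85 to 0.95 among Defa8, Defa9 and RatNP-3b, and 0.68 to 0.88 between these sets. Towards Pla2g2a the first set gave -0.40 to -0.31 and the second -0.02 to 0.18. The points share arrays and scaling, and part of the first set was at background in wildtype rats. Alpha-defensin transcripts of the rat are similar in sequence, and whether a probe also binds a neighbouring family member's transcript was not tested.

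The rest of the alpha-defensin family was measured by 3 of 5 listed genes, and Np4, a neutrophil defensin gene lying in the same run on chromosome 16, was the only one of the 3 to pass the test. Np4 was not well above background on any array of the other 3 groups and was well above it on the 4 DSS-treated Pirc arrays, at -4.53, -5.59, -3.0 and -5.20. As with the described alpha-defensins, rat 20 was highest and rat 16 lowest. It was at least 8.97-fold higher than in DSS-treated wildtype rats (limma adjusted p = 0.000353) and at least 11.2-fold higher than in untreated Pirc rats (limma adjusted p = 0.000141), and the difference between DSS effects had an adjusted p of 0.0761. Defa5 was not well above background on any array (0 of 16), and Defa11 read -6.53 ± 1.10 (SD, n = 4) in DSS-treated Pirc rats against -6.89 ± 0.42 in DSS-treated wildtype rats.

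Markers of the cell types that make alpha-defensins were counted next. Beside all list counts that follow, 9.47% of all probes were called higher and 8.76% lower in Pirc than in wildtype rats after DSS. With DSS, 8.14% of all probes were called higher and 6.51% lower in Pirc rats, and 2.94% and 0.899% in wildtype rats. Of 24 other Paneth cell genes 18 were measured, and between DSS-treated Pirc and wildtype rats 4 rose, 1 fell and 13 did not pass, with a median log2 difference of 0.08 beside -0.11 over all probes. Habp2, a serine protease gene listed for Paneth cells, read -4.19, -8.22, -1.23 and -3.70 in DSS-treated Pirc rats, well above background in 3 of 4 and in none of the other 12 rats, and was at least 10.6-fold higher than in wildtype rats (limma adjusted p = 0.0074). Rat 20 was again highest and rat 16 lowest, as for the listed genes Itln1 and Defa11. Other genes of the list differed. For Mptx1 rat 20 was lowest, at -1.7, and rat 16 highest, at 2.42. Rat 20 was also lowest for Fzd5, and Reg3b was highest in rat 24 and lowest in rat 12. Axin2 and Tbxt, outside the list, had the same highest and lowest rats as Habp2, so this was not particular to Paneth cell genes. Reg3b, a secreted antibacterial lectin, rose at least 1.54-fold (limma adjusted p = 0.0415; 2 of 4 arrays above background), Kit by 0.95 and Spdef by 0.45, while the Wnt receptor gene Fzd5 fell by 1.56 on the log2 scale.

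Of the 5 defining Paneth cell genes, none passed the test between genotypes after DSS. Lyz2, for lysozyme, which macrophages also make, rose with DSS in both genotypes (2.29 in wildtype, limma adjusted p = 0.00556, and 3.66 in Pirc rats, 9.06e-05), and its difference between genotypes after DSS was 0.98 (limma adjusted p = 0.093). Itln1 fell by 1.32 with DSS in Pirc rats (limma adjusted p = 0.0227) and differed by 0.08 between genotypes after DSS (0.902). Mptx1 differed by -2.30 between genotypes after DSS (limma adjusted p = 0.17), Pnliprp2, well above background on 1 of 16 arrays, by -0.51 (0.578), and Defa5, on 0 of 16, by 0.41 (0.495). With DSS in Pirc rats 3 of the 18 rose (Habp2, Lyz2 and Reg3b) and 1 fell (Itln1), with a median of -0.10 beside 0.04 over all probes, and in wildtype rats Lyz2 alone rose. The summed level of the list, on the linear scale, lay between 83.2 and 123 in DSS-treated Pirc rats, between 57.6 and 157 in wildtype rats given DSS, 148 to 216 in untreated Pirc rats and 124 to 295 in untreated wildtype rats, and the part of Paneth cell number in the alpha-defensin levels was not tested. This sum was mostly Itln1, whose signal made up 44.3 to 68.3% of it in DSS-treated Pirc rats and 75.5 to 80.2% in untreated Pirc rats.

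Of 19 neutrophil genes 16 were measured, and 4 rose and 0 fell (1 lower at an unadjusted p under 0.05, limma) between DSS-treated Pirc and wildtype rats, with a median of 0.34. They were Np4, the calprotectin genes S100a9 (3.25) and S100a8 (2.82), and Camp (0.81), which encodes cathelicidin. With DSS 7 rose in Pirc rats, among them S100a8 (4.58), Np4 and S100a9 (3.95), and 5 in wildtype rats, led by S100a8 (2.57), S100a9 (2.06), Cxcr2 (1.96) and Itgam (1.93). The summed level of the list lay between 10.3 and 39.3 in DSS-treated Pirc rats, between 1.78 and 5.14 in wildtype rats given DSS, 1.74 to 2.44 in untreated Pirc rats and 1.03 to 1.35 in untreated wildtype rats. The calprotectin genes S100a8 and S100a9 made up 88.8 to 95.7% of this sum in DSS-treated Pirc rats and 48.9 to 84.7% in wildtype rats given DSS. Of the defining granule protease genes, which are transcribed mainly in neutrophil precursors, Elane was well above background on 0 of 16 arrays and Ctsg on 3, and Prtn3 differed by -0.93 between genotypes after DSS (limma adjusted p = 0.0731). The part of neutrophils in the levels of RatNP-3b and Np4 was not tested.

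**Figure D4:**
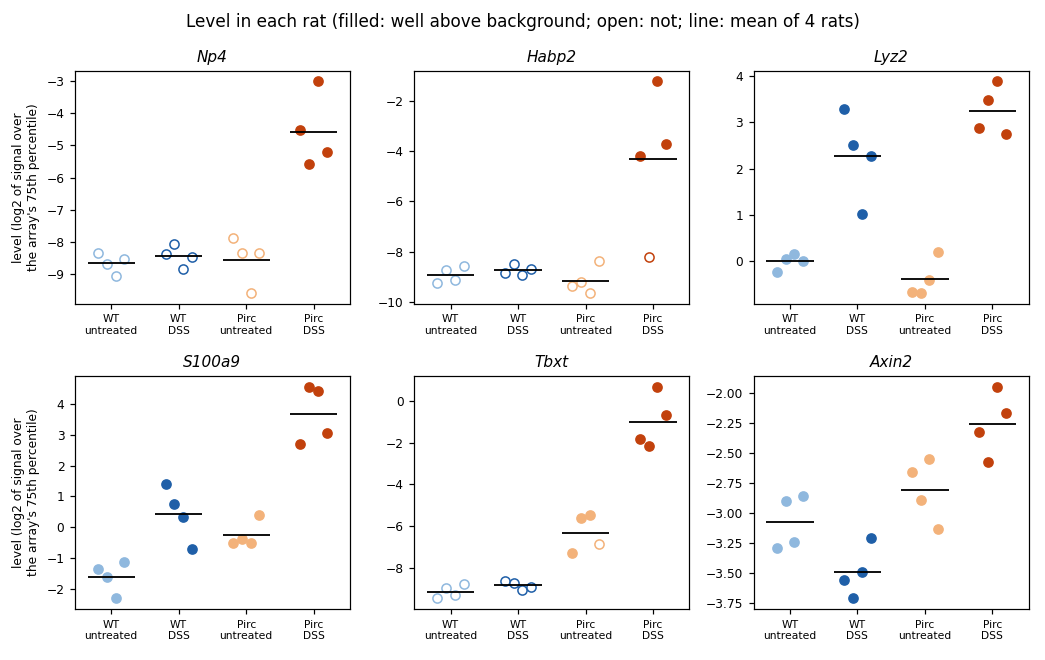
Level (log2 of signal over the 75th percentile of the array) of Np4, Habp2, Lyz2, S100a9, Tbxt and Axin2 in each of 16 rats, with filled points well above background, open points not, and lines at the means of 4 rats. Np4 and Habp2 leave background in DSS-treated Pirc rats only, Lyz2 and S100a9 are higher after DSS in both genotypes, and each vertical axis has its own range.

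The families of the other members were set beside them. Of 8 measured secretory phospholipase A2 genes other than Pla2g2a, 1 rose and 4 fell in Pirc against wildtype rats after DSS (median -0.60). Pla2g5 rose by 1.58, and Pla2g2c, Pla2g10, Pla2g1b and Pla2g3 had differences of -1.54, -0.86, -0.82 and -0.53. With DSS, Pla2g2d rose in both genotypes (2.55 in wildtype and 2.02 in Pirc rats), and in Pirc rats Pla2g5 rose by 1.30 and Pla2g2c and Pla2g2f fell, with differences of -1.83 and -1.03. The difference of Pla2g2a between genotypes after DSS, 4.63 and not tested, lay above all 8. The choice of Pla2g2a by its Pirc minus wildtype difference favoured this, and nothing is read from it.

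Of 20 measured matrix metalloproteinase genes other than Mmp7, 3 rose and 0 fell (1 lower at an unadjusted p under 0.05, limma) in Pirc against wildtype rats after DSS (median 0.33). These were Mmp12 (1.79), Mmp9 (at least 2.41-fold) and Mmp14 (0.83), and the Mmp7 difference of 4.52, which was not tested, lay above them. The choice of Mmp7 by its Pirc minus wildtype difference favoured this, and nothing is read from it. With DSS 7 rose and 1 fell in Pirc rats, led by Mmp10 (at least 16.2-fold), Mmp12 (3.02), Mmp9 (at least 3.90-fold) and Mmp13 (2.64). In wildtype rats Mmp12 (at least 7.46-fold), Mmp2 (2.87) and Mmp28 (1.28) rose.

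Beta-defensins, made by epithelia, and cathelicidin are antimicrobial peptides of other families. Of 8 measured beta-defensin and cathelicidin genes 3 rose between genotypes after DSS, namely Defb1 (4.27), Defb14 (3.62) and Camp (0.81), with a median of 0.63. Defb14 rose with DSS in wildtype rats too (5.23, limma adjusted p = 0.0178, against 8.50 in Pirc rats). The described alpha-defensins had wildtype means that were lower or at background after DSS. Their choice used the difference between DSS effects and so favoured this, and nothing is read from the contrast with Defb14. Defa11, an alpha-defensin outside them, differed by 0.51 with DSS in wildtype rats (limma adjusted p = 0.673). In Pirc rats Defb1 rose at least 161-fold and Defb4 by 7.38, with 1 of 4 untreated Pirc arrays well above background for Defb4 and for Defb14.

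Apc restrains Wnt signalling, and of 14 measured Wnt target genes 4 rose and 0 fell (0 lower at an unadjusted p under 0.05, limma) in Pirc against wildtype rats after DSS (median 0.18). They were Cd44 (1.81), Ascl2 (1.72), Myc (1.32) and Axin2 (1.24), where 9.47% of all probes were called higher. The other 10 did not pass. Among these, the means after DSS in Pirc and wildtype rats were -4.76 and -4.78 for Lgr5, -4.31 and -4.11 for Rnf43, 1.16 and 1.39 for Ccnd1, and -3.87 and -3.98 for Sp5. With DSS in Pirc rats Cd44 (2.98), Lef1 (at least 3.24-fold) and Axin2 (0.55) rose, and in wildtype rats Cd44 did (1.78). Small intestinal genes were counted as a check on tissue of origin. Of 13 measured, 0 rose (0 at an unadjusted p under 0.05, limma) and 2 fell between genotypes after DSS, Alpi (-2.46) and Slc5a1 (-0.91), and with DSS Fabp6 and Anpep fell in each genotype. Mttp also passed the test with DSS, but it was well above background on 0 of 8 wildtype arrays and on 2 of 4 untreated and 0 of 4 DSS-treated Pirc arrays, so that its levels lay at or near background throughout. The defining genes Lct and Apoa4 differed by -0.16 and -1.18 between genotypes after DSS (limma adjusted p = 0.526 and 0.46), and Fabp6 by 0.62 (0.25). Alpi means were -1.40 untreated and -0.14 after DSS in wildtype rats, and -1.70 and -2.60 in Pirc rats. With DSS in wildtype rats 0 genes rose and 3 fell, with 4 higher and 3 lower at an unadjusted p under 0.05 (limma). Summed levels of this list lay between 7.13 and 12.9 in Pirc rats given DSS and were 9.55 to 13.2 in DSS-treated wildtype rats. Untreated, they were 5.35 to 8.39 in Pirc and 6.51 to 8.53 in wildtype rats.

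Of the 13 colon epithelium genes, 1 rose (Clca4, 1.49) and 8 fell between genotypes after DSS, with a median of -0.61. The largest falls were those of Slc26a3 (-2.25), the chloride and bicarbonate exchanger, Guca2a (-1.42) and Hoxd13 (-1.05), and Epcam differed by -0.56. Car1 (-0.06) and Krt20 (-0.45) did not pass. With DSS 1 rose and 5 fell in Pirc rats, among them Slc26a3 (-1.72), Guca2a (-0.80) and Hoxd13 (-0.51), and Clca4 rose in both genotypes (1.67 in Pirc, 1.76 in wildtype rats). The summed level lay between 283 and 426 in Pirc rats given DSS and was 478 to 602 in DSS-treated wildtype rats, and its part in the alpha-defensin difference was not tested.

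**Figure D5:**
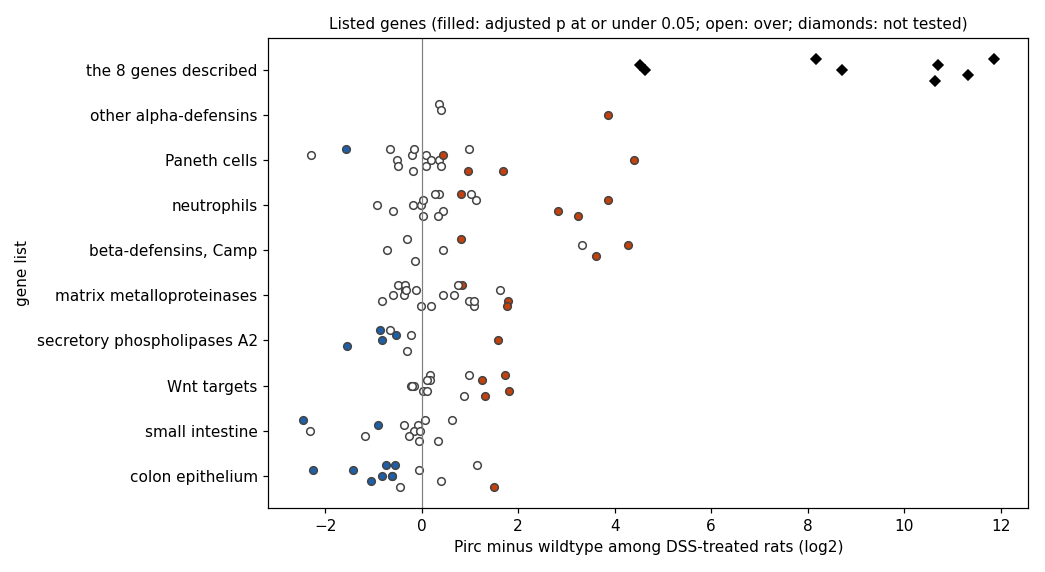
Pirc minus wildtype difference among DSS-treated rats (log2) for the genes of 9 lists and, as diamonds, the 8 genes described, which were chosen by Pirc minus wildtype values and not tested here. Filled points had a limma adjusted p of 0.05 or less. The 8 diamonds run from 4.52 to 11.86, and of the listed genes none exceeds the 4.40 of Habp2. The choice of the 8 genes favoured this, and nothing is read from it.

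The genes most like 3 of the members were taken by Pearson r of the level over all 16 rats, among 11467 named genes well above background in every rat of at least 1 group. These values are descriptions, since the rats fall into 4 groups and share arrays. Nearest to Defa9 were Tifa (0.952), which encodes an adaptor of NF-kappaB signalling, Tbxt (0.942), for the T-box factor brachyury, Dus2 (0.937), Axin2 (0.936) and Msantd3 (0.936). Tbxt had means of -9.11 and -8.81 in untreated and DSS-treated wildtype rats, -6.30 in untreated and -1.0 in DSS-treated Pirc rats, and was not well above background in any of the 8 wildtype rats. Nearest to Mmp7 were S100a9 (0.987), Kirrel3 (0.985), the chemokine gene Cxcl6 (0.983), Ggt1 (0.982) and Ttc9 (0.980). Nearest to Pla2g2a were Plet1 (0.980), Slc25a4 (0.958), Derl3 (0.958), the Toll-like receptor gene Tlr2 (0.955) and Cxcl6 (0.953). Axin2, like Defa9, had a lower mean after DSS in wildtype rats (-3.07 untreated, -3.49 after DSS) and a higher one in Pirc rats (-2.81 and -2.26), whereas S100a9 had higher means in both (-1.62 and 0.44, then -0.26 and 3.70), as Mmp7 did.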

How the data were processed

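Transcript levels in the normal distal colon of 16 rats were measured on single-colour Agilent arrays, 1 per rat. The authors deposited the output of Agilent Feature Extraction 10.7.3.1, in which the processed signal of a spot is its intensity after background subtraction, linear and without scaling from array to array. Control spots (4259 of 62976) were left out. Signals were divided by the 75th percentile of their array, put on the log2 scale and averaged per probe over spots without outlier flags, giving 30367 probes. A probe counted as well above background where at least 50% of its unflagged spots did. In all 18006 probes were named by RefSeq accession through a GRCr8 gene table, and 12361 did not match.

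limma 3.58.1 in R 4.3.3 was fitted to all arrays with a mean for each group, and p-values were adjusted by Benjamini-Hochberg across the 30367 probes and called at an adjusted p of 0.05. Nothing in the labels states that the 4 rats of a group came from separate litters. Where every array of a group was dim, a fold is a lower bound against the lowest signal well above background. The brightest probe stood for a listed gene. The genes named are all 8 members, the 4 largest changes past the threshold of each list and comparison, the defining markers, and the 5 genes most like each of Defa9, Mmp7 and Pla2g2a, apart from 1 listed gene that is not reported here. The members and lists were chosen with earlier results of these data known. The fit was tested on simulated data. Alternatives were quantile normalization, normexp (offset 50), filters and floors on dim probes, slide or array row as a block, use of flagged spots, a fit on the compared groups alone, no moderation, averaged probes and each rat left out.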

Additional observations from a re-analysis of the deposited data

Results flagged for a closer look

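RatNP-3b in untreated Pirc rats had 1 rat far from the others. Rat 11 read -2.15, and the other 3 rats read from -0.87 to -0.74 (log2 of signal over the 75th percentile of the array). This was 1 of 32 combinations of gene and group examined for a distant sample, where 1.6 would be marked by chance.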

How the results depend on the processing

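The DSS effects of Mmp7 and Pla2g2a stayed past the threshold in both genotypes under every alternative run, and the difference between the DSS effects stayed below it except for Mmp7 with normexp (3.47, adjusted p = 0.0102). With each rat left out, the Mmp7 effect ranged from 5.54 to 6.10 in Pirc and 2.35 to 3.15 in wildtype rats, and that of Pla2g2a from 4.16 to 4.79 and 2.32 to 2.73. Normexp gave smaller Pirc minus wildtype differences after DSS for the alpha-defensins, at 7.57 for Defa6, 7.83 for Defa8, 7.30 for Defa9, 8.83 for Defa24, 6.47 for Defal1 and 7.0 for RatNP-3b; its offset of 50 raises dim signals, and 5 further differences shrank by more than the replicate SD, to -0.39 (Defa6), -2.02 (Defa8) and -1.49 (Defa9) for DSS in wildtype rats and to 1.25 (Defa6) and 1.60 (Defal1) for untreated Pirc minus wildtype rats. Over all probes, normexp called 286 higher and 92 lower with DSS in wildtype rats (892 and 273 in the main setting) and 26 higher and 5 lower for the difference between DSS effects (13 and 0, with 16 and 3 by quantile normalization). The within-group correlation of Defa9 with RatNP-3b had an adjusted p of 0.218 within array row (r = 0.78). That of Defa9 with Pla2g2a, near 0, changed sign with quantile normalization (0.04), within array row (0.29) and with a rat left out (-0.15 to 0.23), and that of RatNP-3b with Pla2g2a within slide (-0.01). Among the lists, the filter on dim probes gave 1 riser with DSS in Pirc rats and 2 risers and 2 fallers between genotypes after DSS for Paneth cells, 1 faller in each comparison for neutrophils and 1 riser with DSS in Pirc rats for small intestine. Quantile normalization gave 2 fallers for Paneth cells, 1 faller for neutrophils and 1 riser for small intestine with DSS in Pirc rats, and 1 faller for metalloproteinases between genotypes after DSS. The cause was not tested. No paired analysis was possible because no rat number occurs in more than 1 group.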
